A study of Mus musculus with 16 samples.

Results

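The genes described here are 10 protein-coding genes of the mouse mitochondrial genome whose products are subunits of the respiratory chain and of ATP synthase. They were chosen by name, and all 10 were found among the 27807 genes of the deposited expression table. The set is made up of 5 subunits of complex I (mt-Nd1, mt-Nd2, mt-Nd4, mt-Nd5 and mt-Nd6), cytochrome b of complex III (mt-Cytb), the catalytic core of complex IV (mt-Co1, mt-Co2 and mt-Co3) and subunit a of ATP synthase (mt-Atp6). RNA-seq was performed on poly-A RNA of 16 libraries in 8 groups of 2, a Taf4+/+ (WT) and a Taf4-/- (KO) group at each of 4 stages. ES cells were derived from blastocysts of crosses of C57Bl6J mice heterozygous for a Taf4a null allele that lacks internal exons, and 2 independent lines of each genotype were used. The labels do not say which line gave which library. ES libraries came from cells grown with LIF on inactivated MEF feeders, EB4 libraries from embryoid bodies before all-trans retinoic acid (RA) was added, EB5 libraries from RA-treated embryoid bodies after the first day, and EB8 libraries from a later day of the same treatment. The treatment is part of a protocol for glutamatergic neurons. In the paper, WT cells took on neuronal form after the RA-treated embryoid bodies were dissociated and plated. Taf4 is a subunit of TFIID, the general factor that places RNA polymerase II at nuclear promoters.

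Mitochondrial genes are not transcribed by RNA polymerase II. A single-subunit polymerase, Polrmt, reads both strands of the mitochondrial genome from promoters in the control region with the help of Tfam and Tfb2m, and the long transcripts are cut at the tRNAs that lie between the genes. Most of the mRNAs that result are polyadenylated, which is why a poly-A library holds them. Their products join a larger number of nuclear-encoded subunits in complexes that pass electrons to oxygen and make ATP. ES cells rely strongly on glycolysis, whereas neurons depend on this oxidative route.

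The libraries held 22442118 to 40711826 reads in genes, and all 4 ES libraries (32631020 or more) were deeper than the 12 embryoid body libraries (27685306 or fewer), so that stage cannot be told apart from depth or from the feeder culture. Replicates differed most at EB8, where the higher WT-labelled library (replicate 1) exceeded the lower by 1.65 to 3.43 times across the 10 genes (median 2.00) and the 2 KO-labelled libraries differed by 1.34 to 1.96 times. At ES the 2 WT-labelled libraries differed by up to 1.85 times. Taf4a itself was listed at 1591 to 1959.6 normalised counts under the WT label and at 1973 to 2400.0 under the KO label, and gene-level counts include the exons that remain. Its value therefore does not check the genotype, and KO here means labelled KO. Marker levels differed by stage. The summed normalised counts of 6 pluripotency genes, such as Pou5f1 and Nanog, went from 59167 and 84244 in WT ES to 5176 and 6515 in WT EB8, and Tubb3, Dcx and Ncam1 of neurons together reached 12899.6 and 16193 at EB8 in WT against 1219 and 1201 in KO. The labels call the 2 libraries of a group replicates. The limma p-values rest on the spread between such libraries, pooled over the 8 groups and moderated across genes. They do not measure the spread within the compared groups alone.

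In the NCBI37 (mm9) build the mitochondrial genome is 16299 bases long and carries 13 protein-coding, 2 rRNA and 22 tRNA genes. Of the 10 genes, 9 are read from the plus strand and mt-Nd6 (13552 to 14070) from the minus strand. None has an intron, and most abut a tRNA: mt-Nd1 lies at 2751 to 3707, mt-Nd2 at 3914 to 4951, mt-Co1 at 5328 to 6872, mt-Co2 at 7013 to 7696, mt-Atp6 at 7927 to 8607, mt-Co3 at 8607 to 9390, mt-Nd4 at 10167 to 11544, mt-Nd5 at 11742 to 13565 and mt-Cytb at 14145 to 15288. The last 14 bases of mt-Nd5 and of mt-Nd6 overlap on opposite strands, and the TruSeq v2 kit does not mark strand, so reads there cannot be assigned to either. Over the rest of mt-Nd6, reads from RNA of the opposite strand likewise cannot be told from its own. Their part in the mt-Nd6 values was not tested. mt-Atp6 overlaps mt-Atp8 by 43 bases and mt-Co3 by 1 on the same strand. In 3 of the 10 genes (mt-Co3, mt-Nd4 and mt-Cytb) the genome supplies only the T of the stop codon, and the poly-A tail provides the rest in the RNA. Their last 30 bases are shown with those of mt-Co1, which has a whole stop codon, and capitals mark the part of the stop codon held by the genome. The sequences are from the coding strand of the reference, 5′ to 3′.
mt-Co3: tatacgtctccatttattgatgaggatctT
mt-Nd4: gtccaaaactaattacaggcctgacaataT
mt-Cytb: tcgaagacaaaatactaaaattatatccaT
mt-Co1: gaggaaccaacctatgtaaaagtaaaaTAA

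Copies of mitochondrial DNA also lie in the nuclear genome, and they touch the 10 genes unequally. Cut into windows of 54 bases, the read length, the sequences of mt-Co2, mt-Atp6 and mt-Co3 occur without mismatch in the nuclear genome in 100% of windows, mt-Nd4 in 62.1%, mt-Co1 in 49.1%, mt-Nd2 in 7.72% and mt-Nd5 in 6.15%, while mt-Nd1, mt-Nd6 and mt-Cytb share none. The longest near-identical copy is on chromosome 1 (24619589 to 24623027, minus strand), where 3439 bases match the mitochondrial bases 6390 to 9828 with 2 mismatches. Annotated nuclear exons hold a smaller part of the shared sequence: 85.4% of mt-Atp6 windows recur in annotated exons, those of Gm10925, against 33.0% of mt-Co2 (Gm13341), 25.2% of mt-Co1 (Gm11512 and Gm13340), 7.72% of mt-Nd2 (Gm13339), 2.94% of mt-Nd5 (Gm11407) and none of mt-Co3, mt-Nd4, mt-Nd1, mt-Nd6 and mt-Cytb. How the authors' counting treated reads that fit both places is not given in the sources used here. A gene with almost no reads is a neighbour of the 10 genes, mt-Nd4l, another complex I subunit. Its 297 bases are identical to Gm10222 on chromosome 1 (24619243 to 24619539, minus strand). Their first 54 bases, one read length, are printed with the start codon in capitals.
mt-Nd4l: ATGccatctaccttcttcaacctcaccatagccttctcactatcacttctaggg
Gm10222: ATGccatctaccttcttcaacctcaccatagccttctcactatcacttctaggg
Of these identical genes, mt-Nd4l had 0 or 1 read in every library and Gm10222 had 0 to 7, whereas mt-Nd4, which overlaps mt-Nd4l by 7 bases, had 29010 to 136166. mt-Co2, mt-Co3 and mt-Atp6 also share every window with the nuclear genome, but had at least 32477, 37857 and 7932 reads. Why mt-Nd4l differs from these genes was not tested.

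Together the 10 genes took a large share of each library. Of all reads in genes at ES they held 4.09% and 5.30% (WT) and 3.56% and 3.39% (KO). The share was 1.96% and 1.40% (WT) and 2.43% and 2.63% (KO) at EB4, and 1.25% and 1.49% (WT) and 2.34% and 2.18% (KO) at EB5. At EB8 it was 2.46% and 1.27% (WT) and 1.87% and 2.93% (KO). The 95% Wilson intervals of these shares are at most 0.0148 percentage points wide and cover counting error only. Every ES library thus lay above every embryoid body library, the KO values lay below both WT values at ES and above both at EB4 and EB5, and at EB8 the genotypes overlapped. mt-Co1, the subunit that holds the oxygen-binding site of complex IV, was the most abundant gene of the whole table in all 4 ES libraries and ranked between 1 and 6 in the others.

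**Figure D1:**
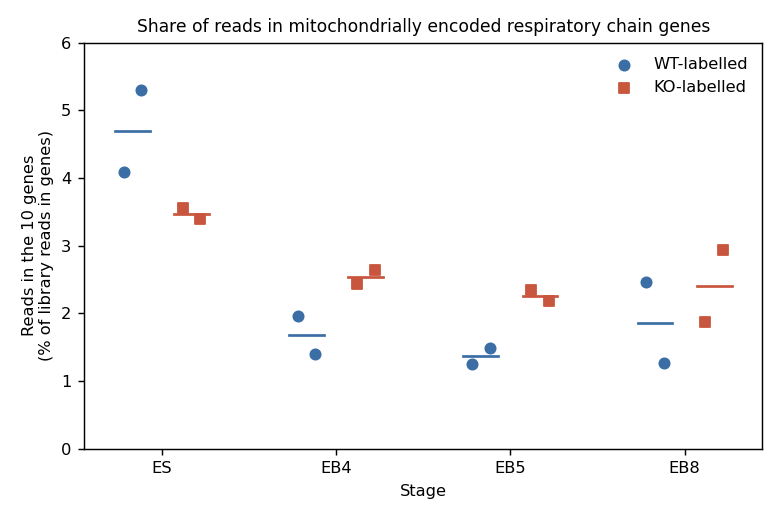
Share of library reads (%, y axis, from 0) in the 10 genes at each stage (x axis), with a point for each library and a line for the mean of 2. All ES libraries lie at 3.39% or above and all embryoid body libraries at 2.93% or below.

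Per length, the members were far from equal. On the RPKM scale, the read count divided by gene length and by the reads in genes of its library, mt-Co1 had a median level of 7280 in the 4 ES libraries and 4269.9 in the 12 embryoid body libraries, followed by mt-Co3 (6107 and 3356), mt-Co2 (5086 and 2989) and mt-Nd1 (5095 and 2264). Next came mt-Cytb (3495 and 1309) and mt-Nd4 (2407 and 1303). The lowest levels were those of mt-Nd2 (2176 and 875.7), mt-Nd5 (1328 and 755), mt-Atp6 (1755 and 751) and mt-Nd6 (1218 and 654), the only member on the minus strand. mt-Nd1 was above mt-Cytb, and mt-Nd4 above mt-Nd2, in 16 of 16 libraries. mt-Nd2 was above mt-Nd5 in 15, mt-Co1 above mt-Co3 and mt-Co3 above mt-Co2 in 14, and mt-Co2 above mt-Nd1 in 13. Neighbours in the order were less distinct elsewhere, as mt-Cytb exceeded mt-Nd4, mt-Nd5 exceeded mt-Atp6 and mt-Atp6 exceeded mt-Nd6 in only 10 of 16. Windows shared with nuclear copies, given above, make up most or all of mt-Co2, mt-Co3, mt-Atp6 and mt-Nd4 and 49.1% of mt-Co1, and the part of multiply placed reads in these levels was not tested.

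**Figure D2:**
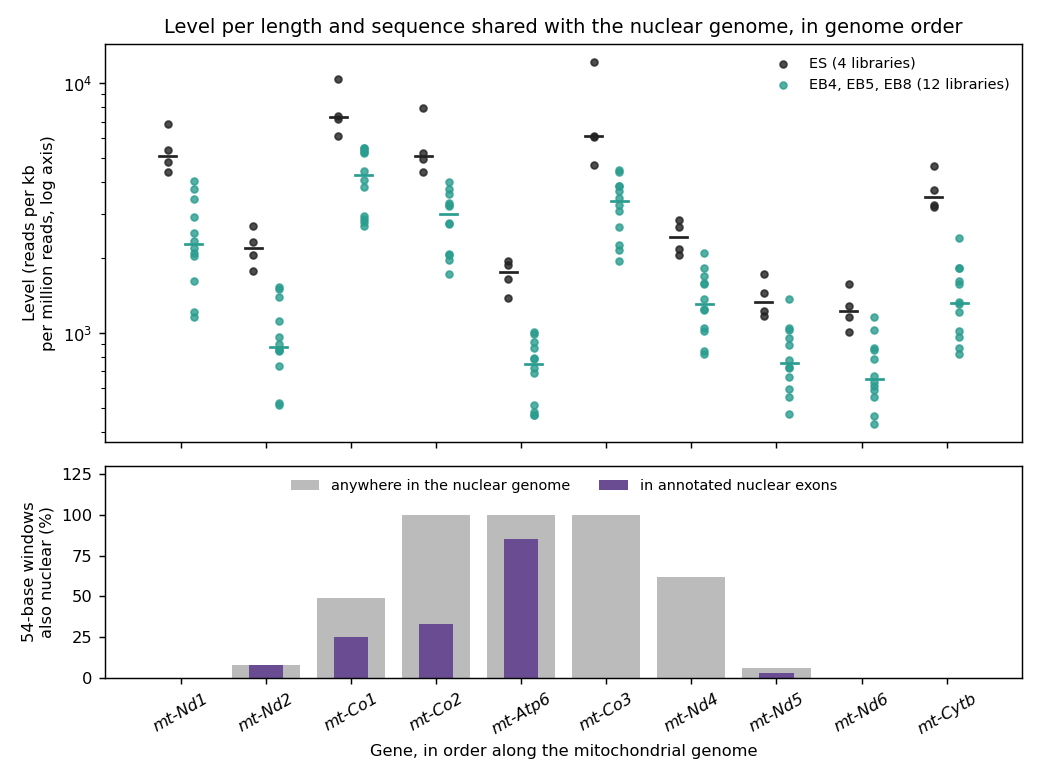
Upper panel, level of each gene in RPKM (log axis) in the 4 ES and 12 embryoid body libraries, with a line at the median. Lower panel, share (%) of 54-base windows that recur in the nuclear genome and in annotated nuclear exons. The genes stand in their order along the mitochondrial genome, and mt-Nd1, mt-Nd6 and mt-Cytb have no bar because no window recurs.

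From ES cells to EB4, before any RA, the mRNAs of all 4 complexes fell in the WT-labelled libraries. All 10 genes were lower at EB4 and passed the test (limma, adjusted p = 0.00443 to 0.0405), with a median log2 change of -1.48 (2.79-fold), where 16.5% of the 16124 genes tested passed, 7.57% as lower, and the median of all genes was -0.02. Because the members varied together, as given below, the 10 calls are not independent observations. In the KO-labelled libraries all 10 values were also lower at EB4, but with a median log2 change of -0.49 (1.40-fold) none passed (adjusted p = 0.101 to 0.550, 2 at an unadjusted p under 0.05), where 3.5% of genes passed, 0.992% as lower. There edgeR called 0 of the 10 and DESeq2 called 1 (mt-Cytb), as did limma with a replicate block within each genotype, added after the data were seen (mt-Cytb, adjusted p = 0.0488), and under quantile normalisation, which ties the top ranks, mt-Co1 had a log2 value of 0.0. The WT result needs the spread of all 16 libraries: fitted on the 4 WT ES and EB4 libraries alone, 0 of the 10 genes and 0 of all genes passed, at the same median of -1.48. It also thinned when 1 library was left out, to 6 genes without WT ES replicate 1, 4 without WT ES replicate 2, and 3 without WT EB4 replicate 2, with median log2 changes of -1.61, -1.26 and -1.16.

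Complex I takes electrons from NADH and pumps protons, and its mitochondrially encoded subunits form the core of the membrane arm. Values are normalised counts, replicates 1 and 2 of WT against replicates 1 and 2 of KO. mt-Nd1 counted 152844 and 183725 (WT) against 126805 and 134011 (KO) at ES, 61039 and 42677 (WT) against 77275 and 94622 (KO) at EB4, 28706 and 51886 (WT) against 61127 and 56788 (KO) at EB5 and 104691 and 30498 (WT) against 47598 and 85889 (KO) at EB8. This gene, at the junction with the arm that binds NADH, was without overlap between genotypes at the first 3 stages, lower in KO at ES and higher in KO at EB4 and EB5, whereas at EB8 the WT pair enclosed the KO pair. Its fall from ES to EB4 in WT was 3.28-fold (log2 -1.72 ± 0.47 SE, n = 2 and 2, limma adjusted p = 0.0273), against a log2 value of -0.61 ± 0.47 in KO (adjusted p = 0.495). mt-Nd2 counted 71084 and 77329 (WT) against 54938 and 61809 (KO) at ES, 25702 and 21128 (WT) against 32237 and 41808 (KO) at EB4, 13893 and 24979 (WT) against 25512 and 22311 (KO) at EB5 and 42956 and 14250.0 (WT) against 21224 and 37202 (KO) at EB8. The genotypes overlapped for mt-Nd2, a proton-pumping subunit, at EB5 and EB8 and were apart at ES and EB4. Its fall in WT was 3.18-fold (log2 -1.67 ± 0.43 SE, adjusted p = 0.0212).

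The antiporter-like pumps of the outer membrane arm, mt-Nd4 and mt-Nd5, moved closely together. mt-Nd4 counted 108768 and 108563 (WT) against 84577 and 86440.5 (KO) at ES, 49434 and 38503 (WT) against 59868 and 72239 (KO) at EB4, 29417 and 38705 (WT) against 55479 and 47767 (KO) at EB5 and 63099 and 30715 (WT) against 40902 and 68679 (KO) at EB8. mt-Nd5 counted 77822 and 87297 (WT) against 63802 and 64758 (KO) at ES, 38396 and 29927 (WT) against 45120.1 and 53987 (KO) at EB4, 22376 and 32366 (WT) against 44500.0 and 36006 (KO) at EB5 and 51819 and 26554 (WT) against 31938 and 59512 (KO) at EB8. For both, KO lay below WT at ES and above WT at EB4 and EB5 without overlap, and the ratio of mt-Nd5 to mt-Nd4 stayed between 0.715 and 0.867 in all 16 libraries. Their falls from ES to EB4 in WT were 2.49-fold (log2 -1.32 ± 0.31 SE, limma adjusted p = 0.0147) and 2.43-fold (log2 -1.28 ± 0.33 SE, adjusted p = 0.021). mt-Nd6 counted 19793 and 22702 (WT) against 15701 and 17408 (KO) at ES, 10167 and 7948 (WT) against 11270.1 and 13018 (KO) at EB4, 5832 and 8849.8 (WT) against 11302 and 8080.4 (KO) at EB5 and 14368 and 6359 (WT) against 7306 and 14334 (KO) at EB8. The genotypes of this gene of the minus strand were apart at ES and EB4 and overlapped at EB5 and EB8. It showed the smallest fall of the 10 in WT (2.36-fold, log2 -1.24 ± 0.37 SE, adjusted p = 0.0405), which missed the threshold when WT ES replicate 1 (adjusted p = 0.0854), WT ES replicate 2 (0.140), WT EB4 replicate 1 (0.0781) or WT EB4 replicate 2 (0.179) was left out.

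Cytochrome b is the electron-carrying membrane subunit of complex III and its only subunit encoded in the mitochondrion. mt-Cytb counted 158026 and 102174 (WT) against 112004 and 124329 (KO) at ES, 40444 and 27492 (WT) against 51282 and 59896 (KO) at EB4, 24470.5 and 31213 (WT) against 46034 and 38355 (KO) at EB5 and 56361 and 28835 (WT) against 35539.9 and 65741 (KO) at EB8. At ES the WT pair enclosed the KO pair, so mt-Cytb was the single member without a separation of the genotypes there, while at EB4 and EB5 both KO values were above both WT values. Its fall from ES to EB4 was the largest of the 10 in both genotypes, 3.81-fold in WT (log2 -1.93 ± 0.35 SE, limma adjusted p = 0.00447) and 2.13-fold in KO, where limma without a block did not call it (log2 -1.09 ± 0.35 SE, adjusted p = 0.101) and DESeq2 did (adjusted p = 0.0316). Its share of the counts of the 10 genes ran from 6.90% to 13.0% at ES and from 6.93% to 9.38% in embryoid bodies. No 54-base window of mt-Cytb, mt-Nd1 or mt-Nd6 recurs without mismatch in the nuclear genome, and these 3 had log2 changes from ES to EB4 of -1.93 to -1.24 in WT, against -1.60 to -1.45 in the 3 genes that share every window.

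Complex IV, cytochrome c oxidase, reduces oxygen with a core made of the 3 mitochondrially encoded subunits. mt-Co1 counted 338441 and 447053 (WT) against 333825 and 275476 (KO) at ES, 172100.5 and 124765 (WT) against 231713 and 244491 (KO) at EB4, 107965 and 118535 (WT) against 209059.7 and 206478 (KO) at EB5 and 186572 and 112920.4 (WT) against 151025 and 203099 (KO) at EB8. The genotypes were apart at ES, EB4 and EB5, and at EB5 the KO values stood closely together. mt-Co2 counted 106137 and 151481 (WT) against 101759.5 and 87856 (KO) at ES, 54920.3 and 39069 (WT) against 68212 and 74514 (KO) at EB4, 30561 and 37445 (WT) against 57790.4 and 55921 (KO) at EB5 and 60121 and 35084 (WT) against 44634 and 65885 (KO) at EB8. The same separation held for mt-Co2, which receives electrons from cytochrome c, and the ratio of mt-Co1 to mt-Co2 kept within 2.95 to 3.69 over the 16 libraries. Both fell in WT from ES to EB4, mt-Co1 2.65-fold (log2 -1.41 ± 0.25 SE, limma adjusted p = 0.00443) and mt-Co2 2.74-fold (log2 -1.45 ± 0.28 SE, adjusted p = 0.00569). Like mt-Cytb they passed the test in 15 of 16 other settings, the exception being the fit on the compared groups alone. mt-Co3 counted 143398 and 265609 (WT) against 142802 and 107214 (KO) at ES, 100982 and 46543 (WT) against 84668 and 87605 (KO) at EB4, 54206 and 47258 (WT) against 74233 and 69072 (KO) at EB5 and 68787 and 40082 (WT) against 57522 and 83937 (KO) at EB8. A WT library at ES (replicate 2) and another at EB4 (replicate 1) were high in mt-Co3, the remaining core subunit, compared with their partners. The ratio of mt-Co3 to mt-Cytb ran from 0.862 to 2.60 over the 16 libraries. The genotypes of mt-Co3 were apart at ES, where the higher KO value was just under the lower WT value, and at EB5, and overlapped at EB4 and EB8. Its fall in WT was 2.85-fold (log2 -1.51 ± 0.38 SE, adjusted p = 0.019).

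ATP synthase, complex V, is represented by mt-Atp6, whose product forms the proton channel beside the rotating ring. mt-Atp6 counted 39159 and 35572 (WT) against 33564 and 27334 (KO) at ES, 17289 and 8805 (WT) against 14786 and 18059 (KO) at EB4, 8543 and 9364 (WT) against 13804 and 12449.8 (KO) at EB5 and 18282 and 8398 (WT) against 11202 and 16455 (KO) at EB8. The genotypes were apart at ES and at EB5, and overlapped at EB4 and EB8. From ES to EB4 it fell 3.02-fold in WT (log2 -1.60 ± 0.35 SE, limma adjusted p = 0.0108), with a log2 value of -0.89 ± 0.35 in KO (adjusted p = 0.167, unadjusted p = 0.0256).

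**Figure D3:**
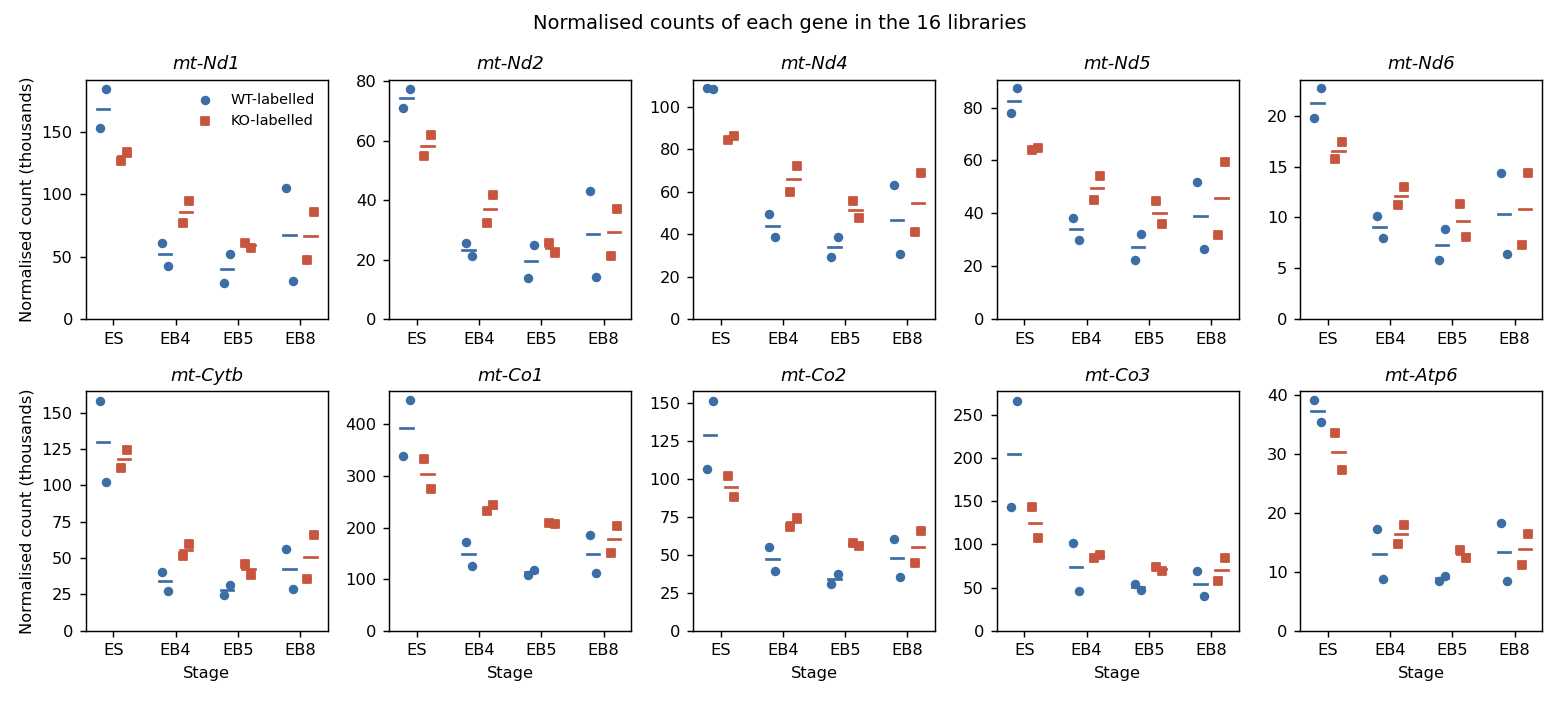
Normalised counts (y axes from 0, with their own scale in each panel) of the 10 genes in the 16 libraries by stage (x axis). Points are libraries and lines the means of 2. In each panel the ES means lie above the embryoid body means of the same genotype, and the EB8 pairs are spread widely.

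The comparison of KO with WT asks whether loss of Taf4 was accompanied by a different level of these transcripts at each stage. No member passed the test at any stage in limma. At ES all 10 fitted values were lower in KO, with a median log2 difference of -0.36 (range -0.66 to -0.11, adjusted p = 0.552 to 0.946, 0 at an unadjusted p under 0.05). No gene of the table passed there either (0%, 0 of 16124 by limma and by edgeR, 1846 at an unadjusted p under 0.05, 469 by DESeq2). Both KO values lay below both WT values in 9 of 10 members, all but mt-Cytb, against 20.7% of all genes, and the direction of mt-Cytb turned without WT ES replicate 1 (log2 0.21) and under quantile normalisation (0.03). The log2 difference of mt-Co1, the most abundant gene in every ES library, was 0.0 under quantile normalisation, which ties the top ranks. mt-Co3 had the largest difference (log2 -0.66 ± 0.38 SE, adjusted p = 0.552). In bulk RNA, fewer cells with many mitochondrial transcripts and fewer transcripts per cell cannot be told apart. Of 9 markers of the fibroblast feeders, the summed normalised counts were 1449.9 and 2933 in WT ES against 372 and 774 in KO ES, with Lum at 3 reads or fewer in each, and 0 of the 8 tested passed between genotypes at any stage in limma or edgeR. At ES 4 of the 8 had an unadjusted p under 0.05 and DESeq2 called 4, and DESeq2 called 2 at EB4, 1 at EB5 and 1 at EB8. At EB4 the sums were 1462 and 1613 in WT against 583 and 670.0 in KO. They were 3237 and 2539 (WT) against 1739 and 1697 (KO) at EB5, and 3587 and 4289 (WT) against 2157 and 5099 (KO) at EB8. The list thus does not mark feeders alone, and the part of feeder RNA in the members' values was not tested.

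At EB4 and EB5 the order of the genotypes was the opposite. All 10 fitted values were higher in KO at EB4, with a median log2 difference of 0.61 (range 0.33 to 0.74), and none passed (limma adjusted p = 0.123 to 0.649, where 6.12% of all genes passed, with mt-Co1 and mt-Co2 at an unadjusted p under 0.05, 0 calls by edgeR and DESeq2). At EB5 the median was 0.59 (range 0.36 to 0.88), again with no call (adjusted p = 0.0725 to 0.678, where 4.34% of all genes passed, with the same 2 genes at an unadjusted p under 0.05 and 0 calls by edgeR). Both KO values lay above both WT values in 8 of 10 members at EB4, the exceptions being mt-Co3 and mt-Atp6, and in 8 of 10 at EB5, the exceptions being mt-Nd2 and mt-Nd6, against 25.3% and 26.7% of all genes. The members varied together (Pearson's r of 0.845 to 0.993 between pairs). These counts, like that at ES, are therefore not independent observations. mt-Co1 was nearest to the threshold, 1.62-fold higher at EB4 (log2 0.70 ± 0.25 SE, adjusted p = 0.123) and 1.84-fold higher at EB5 (log2 0.88 ± 0.25 SE, adjusted p = 0.0725). It was called at EB5 by DESeq2 (adjusted p = 0.0147). Next to it stood mt-Co2 at EB5 (log2 0.75 ± 0.28 SE, adjusted p = 0.148). Leaving out WT EB4 replicate 2 lowered the EB4 median to 0.39 (0.88 without WT EB4 replicate 1) and turned the direction of mt-Co3 (log2 -0.23) and mt-Atp6 (-0.08) at EB4, and leaving out WT EB5 replicate 1 turned that of mt-Nd2 (-0.07) at EB5. The pluripotency markers moved with genotype as well, with 2 of 6 called higher in KO at EB4 and 2 of 6 at EB5. Their sums were 40704 and 26082.5 in WT EB4 against 57266 and 68261 in KO EB4, and 16611 and 13193 in WT EB5 against 36339 and 47650.2 in KO EB5. Of the neural progenitor markers 1 of 5 was called lower in KO at EB4 and 4 of 5 at EB5 (median log2 -3.25), while of the 3 neuron markers Tubb3 was called higher in KO at both stages (limma adjusted p = 0.0127 and 0.0128). Whether the make-up of the cultures contributes to the members' values was not tested.

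At EB8 no order of the genotypes could be read. The fitted log2 differences were 0.10 to 0.40 (median 0.24, limma adjusted p = 0.478 to 0.880, 0 at an unadjusted p under 0.05 and 0 calls by edgeR and DESeq2), while 22.9% of all genes passed. In 0 of 10 members were the KO values on one side of both WT values, against 30.4% of all genes with KO above and 33.5% with KO below. The median became 0.73 without WT EB8 replicate 1 and -0.25 without WT EB8 replicate 2, and 0.60 and -0.16 without KO EB8 replicates 1 and 2. From EB4 to EB8 in WT, 27.2% of all genes passed and none of the 10 did (limma, edgeR and DESeq2, 0 at an unadjusted p under 0.05). Their median log2 change was 0.05 (range -0.38 to 0.27, adjusted p = 0.490 to 0.994), and -0.50 or 0.59 without WT EB8 replicate 1 or 2, and 0.25 or -0.14 without WT EB4 replicate 1 or 2. In KO the median was -0.31 (range -0.44 to -0.18, adjusted p = 0.253 to 0.748), again with 0 calls by the 3 tools and 0 at an unadjusted p under 0.05, where 18.5% of all genes passed, and it was 0.01 and -0.67 without KO EB8 replicates 1 and 2 and -0.19 without KO EB4 replicate 2. Scaling to the library total moved the median of all genes by 0.241 in that last comparison, and 3 of the 10 genes changed direction under it, as did all 10 under quantile normalisation (median 0.14).

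**Figure D4:**
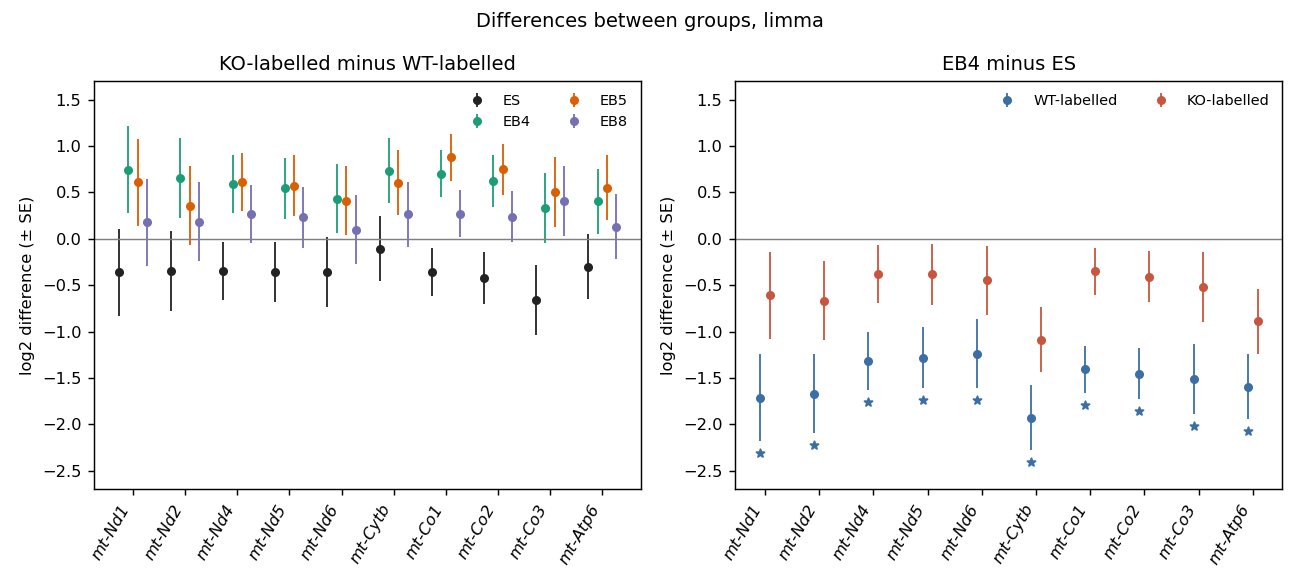
Log2 differences with standard errors (y axis) for each gene (x axis), KO minus WT at the 4 stages on the left and EB4 minus ES in each genotype on the right. Stars below a point mark an adjusted p under 0.05, and only the 10 WT values on the right carry one. On the left, the EB8 values other than that of mt-Co3, the EB4 values of mt-Co3 and mt-Atp6, the EB5 value of mt-Nd2 and the ES value of mt-Cytb change sign when a single library is left out. Under quantile normalisation the ES value of mt-Co1 on the left and its KO value on the right are 0.0.

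A call in WT without one in KO does not show that the changes differ, so the differences themselves were tested. From ES to EB4 the fall was smaller in KO for all 10 fitted values (median log2 difference 0.96, range 0.71 to 1.11), but no member passed (limma adjusted p = 0.584 to 0.813, 2 at an unadjusted p under 0.05) and 0% of all genes did (1129 at an unadjusted p under 0.05). With the block within each genotype 8 genes and no member passed. For the members edgeR and DESeq2 also gave 0 calls, and over all genes they gave 0 and 111. The change of the genotype difference between ES and EB5, a comparison added after the values were seen, had a median of 0.94 (range 0.70 to 1.24) and no call (adjusted p = 0.347 to 0.721, 3 members at an unadjusted p under 0.05, 0 of all genes by limma with 1551 at an unadjusted p under 0.05). By edgeR 0 members and 0 genes were called, by DESeq2 0 members and 219 genes, and with the block within each genotype 0 members and 12 genes. mt-Co1 had the largest value (1.24 ± 0.36 SE, adjusted p = 0.347). From EB4 to EB8 the genotype difference changed by a median of -0.36 (range -0.57 to 0.08, adjusted p = 0.622 to 0.970, 0 at an unadjusted p under 0.05, 0 calls by all 3 tools), where 2.75% of all genes passed, and by 0.23 without WT EB8 replicate 1 and -0.84 without WT EB8 replicate 2. Leaving out other libraries also moved it by over 1.5 times, to -0.62 and -0.15 without WT EB4 replicates 1 and 2, and to -0.01 and -0.73 without KO EB8 replicates 1 and 2. These comparisons share libraries, and their values are not independent of each other.

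The nuclear genome encodes most other subunits of the 4 complexes, and 70 of them, from lists named with earlier results of these data known, could be tested beside the mitochondrial ones. In WT 23 of 70 fell from ES to EB4 and none rose, with a median log2 change of -0.47 (range -1.46 to 0.65) against -1.48 for the 10 mitochondrial genes, where 7.57% of all genes passed as lower and 16.5% in either direction. By complex, 7 of 36 subunits of complex I fell, 3 of 9 of complex III, 5 of 10 of complex IV and 8 of 15 of ATP synthase. Of the genes named for a low p at EB8, Ndufa11, an accessory subunit of complex I, fell by 0.91 on the log2 scale (SE 0.22, limma adjusted p = 0.0168), Uqcr10 of complex III by 1.27 (SE 0.26, adjusted p = 0.00843), Cox7a2 of complex IV by 0.74 (SE 0.17, adjusted p = 0.0128) and Atp5g1, which makes part of the rotating ring of ATP synthase, by 1.19 (SE 0.21, adjusted p = 0.00428). In KO 0 of 70 were called by limma and by edgeR over the same interval and 12 by DESeq2, with 30 at an unadjusted p under 0.05 (median -0.40, range -1.05 to 0.34), beside a median of -0.49 for the 10 mitochondrial genes. In WT edgeR called 20 and DESeq2 35. Between genotypes, 0 of 70 were called by limma and edgeR at ES (1 at an unadjusted p under 0.05, 0 by DESeq2) and 0 at EB5 (7 and 1). By limma 2 were higher in KO at EB4 (Ndufb9 and Atp5g1), with 13 at an unadjusted p under 0.05 and 7 called by DESeq2, where 6.12% of all genes passed. At EB8 4 were higher (Uqcrb, Uqcr10, Ndufa11 and Atp5g1), with 14 at an unadjusted p under 0.05 and 6 called by DESeq2, where 22.9% of all genes passed. The median KO minus WT difference of the 70 was 0.09 at ES, 0.14 at EB4, 0.15 at EB5 and 0.06 at EB8, beside -0.36, 0.61, 0.59 and 0.24 for the mitochondrial genes.

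**Figure D5:**
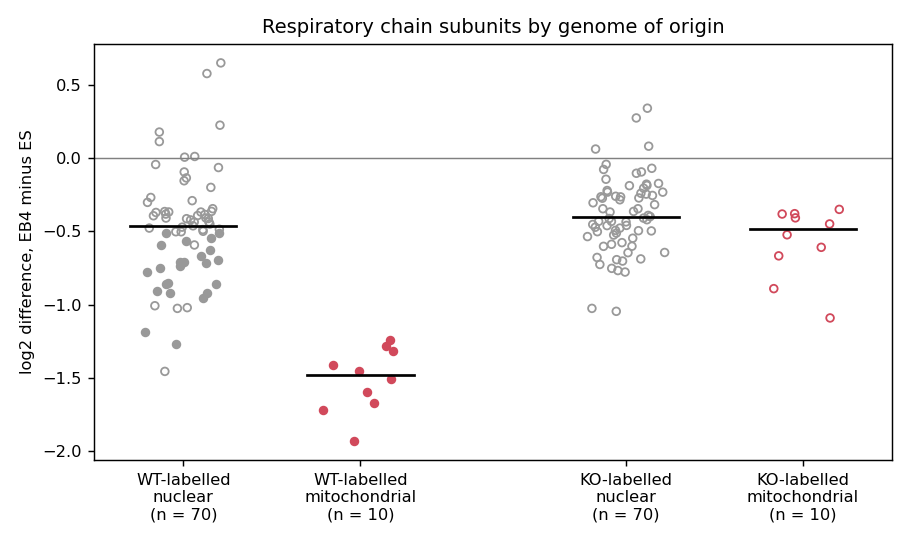
Log2 change from ES to EB4 (y axis) of 70 nuclear-encoded and 10 mitochondrially encoded subunits in each genotype, with a line at the median. Filled points have an adjusted p under 0.05, 23 of 70 and 10 of 10 in WT and none in KO. The medians are -0.47 and -1.48 in WT and -0.40 and -0.49 in KO.

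The nuclear genes that copy, transcribe and process the mitochondrial genome were mostly not called over the step in which its mRNAs fell. For comparison, limma called 16.5% of all genes tested from ES to EB4 in WT (7.57% as lower) and 3.5% in KO. From EB4 to EB8 it called 27.2% in WT and 18.5% in KO. Between genotypes the share of all genes was 0% at ES, 6.12% at EB4, 4.34% at EB5 and 22.9% at EB8. Among 17 tested genes of mitochondrial DNA maintenance and transcription, which include Tfam, Tfb2m and Polrmt, limma called 0 from ES to EB4 in WT (median log2 change -0.16, range -0.76 to 0.51) and 0 in KO (2 at an unadjusted p under 0.05 in each, 0 by edgeR, 2 and 1 by DESeq2), and 0 between genotypes at each stage (0 or 1 at an unadjusted p under 0.05, 0 by edgeR, 1 by DESeq2 at EB4 and 0 at the other stages). The lowest values from ES to EB4 in WT were just short of the threshold. They were those of Tfb2m (log2 -0.76 ± 0.26 SE, limma adjusted p = 0.0603) and Polrmt (-0.70 ± 0.24 SE, 0.0623). Polrmt also had the lowest value in KO (-0.88 ± 0.24 SE, adjusted p = 0.0615). From EB4 to EB8 in WT, Tk2, a kinase that supplies mitochondrial nucleotides, rose (log2 0.86 ± 0.24 SE, adjusted p = 0.0174). Of 21 genes of mitochondrial RNA processing and stability 1 fell from ES to EB4 in WT, the tRNA 3′ end nuclease Elac2 (log2 -0.94 ± 0.27 SE, adjusted p = 0.0359), and from EB4 to EB8 in WT 2 fell, Lrpprc, which stabilises mitochondrial mRNAs (log2 -0.66 ± 0.17 SE, adjusted p = 0.0124), and Fastkd2, an RNA-binding protein of the mitochondrial granules (log2 -0.70 ± 0.19 SE, adjusted p = 0.0155). In KO 3 fell over that interval, Lrpprc (log2 -0.77, adjusted p = 0.00883), Fastkd2 (-0.95, 0.00549) and Grsf1, another RNA-binding protein of the granules (-0.66, 0.021). From ES to EB4 5 of the 21 had an unadjusted p under 0.05 in WT, where edgeR called 1 and DESeq2 2, and 7 in KO, where limma and edgeR called 0 and DESeq2 2. None of the 21 passed between genotypes at any stage in limma, edgeR or DESeq2 (1 at an unadjusted p under 0.05 at EB8, 0 at the other stages). Of 11 tested regulators of nuclear genes for mitochondria limma, edgeR and DESeq2 called 0 from ES to EB4 in either genotype (3 in WT and 0 in KO at an unadjusted p under 0.05). Esrrg, an oestrogen-related nuclear receptor, had 7.7 and 17.2 normalised counts (WT) against 0 and 0 (KO) at EB4, and 272 and 339 (WT) against 14.8 and 24.5 (KO) at EB8. It rose from EB4 to EB8 in both genotypes by limma (adjusted p = 7.81e-05 in WT, log2 4.60 ± 0.54 SE, and 0.000327 in KO, from 0 counts) and was lower in KO at EB4 (adjusted p = 0.00727) and at EB8 (log2 -3.93 ± 0.54 SE, adjusted p = 0.000455). Pprc1, a coactivator of such genes, fell from EB4 to EB8 in WT (log2 -0.79 ± 0.19 SE, adjusted p = 0.0085).

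Across the 16 libraries the members varied together. Pearson's r between log2 values, given as a description, was highest for mt-Nd1 with mt-Nd2 (0.993), mt-Nd4 with mt-Nd5 (0.992) and mt-Co1 with mt-Co2 (0.991), and lowest for mt-Co3 with mt-Cytb (0.845). Over the 16 libraries the make-up of the set varied less than its level, which ran from 1.25% to 5.30% of the reads. The share of mt-Cytb ran from 6.90% to 13.0% of the counts of the 10 genes. mt-Co1 supplied 27.8% to 37.3% of the counts of the 10 genes, mt-Nd1 8.81% to 15.7%, mt-Co3 10.3% to 17.9% and mt-Nd6 1.46% to 2.21%, and for no member did the shares at ES and in embryoid bodies lie apart. Of the genes outside the mitochondrial genome, the 5 whose log2 values followed the mean of the 10 most closely over the 16 libraries were Gm10925 (r = 0.985), Dnajb11 (0.958), Psma4 (0.923), Mrpl35 (0.915) and Ubtf (0.915). Gm10925 is the annotated part of the chromosome 1 copy, with exons identical to mitochondrial bases 7790 to 7973 and 8016 to 8603, and had 938 to 6562 reads. The longer of these stretches lies within mt-Atp6, itself part of the mean. Reads there cannot be told apart by sequence, so the r of Gm10925 does not describe a separate gene. Dnajb11 encodes a chaperone cofactor of the endoplasmic reticulum, Psma4 a proteasome subunit, Mrpl35 a protein of the mitochondrial ribosome and Ubtf a factor for ribosomal RNA transcription. The r values also carry the common split between ES and embryoid body libraries.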

How the data were processed

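Poly-A RNA of 16 libraries was sequenced as single-end 54-base reads. Per the labels and the submitters' processing notes, the authors used CASAVA 1.7 and 1.8, TopHat2 2.0.10, build mm9, HTSeq 0.5.4p3 and DESeq2 1.0.19. Annotation release, counting mode and treatment of multiply placed reads are not given in the sources used here. The deposited signal is the gene count divided by a size factor, for 27807 genes. All values were whole multiples of one step per library (0.715 to 1.28, tolerance 0.01 reads), which gave whole reads and the depth of 22442118 to 40711826.

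The main test was limma 3.58.1 (R 4.3.3) on log2(normalised count + 1), with 8 group means over 16 libraries, trended eBayes (residual df 8, prior df 4.27), a minimum mean of 10 (which kept 16124 genes and all 10 members), Benjamini-Hochberg adjustment over these and a threshold of 0.05. edgeR 4.0.16 and DESeq2 1.42.0 on the recovered reads, other scalings, pseudocounts and filters, a replicate block and leaving out libraries were alternatives. Scripts were tested on simulated data. The replicate numbers do not pair libraries by the labels, and a replicate block within each genotype was added after seeing the data.

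Positions and sequences came from NCBI37 with GENCODE annotation (coordinates from 1), and blastn 2.17.0 located nuclear copies. All 10 members are named, as are, of each list, at most the 3 genes of lowest p in KO against WT at EB8 and in EB8 against EB4 in WT, plus the 5 genes most like the members and, chosen after their values were seen, Ndufb9, a nuclear subunit called at EB4, Elac2, Grsf1 and the marker Tubb3. The ES to EB4 values of Tfb2m and Polrmt were also chosen for printing after they were seen. Members and lists were chosen with earlier results of these data known.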

Additional observations from a re-analysis of the deposited data

How the results depend on the processing

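KO against WT gained 1 call each at EB4, EB5 and EB8 under quantile normalisation (mt-Co1, adjusted p = 0.00758, 0.0102 and 0.00273), a scaling that fixes the values of the top ranks. DESeq2 added 1 at EB5 (mt-Co1, adjusted p = 0.0147) and 1 for EB4 against ES in KO (mt-Cytb, 0.0316), where the block within each genotype also gave 1 (mt-Cytb, 0.0488). EB4 against ES in WT gave 10 calls by edgeR and DESeq2, 9 with no filter, 8 under quantile normalisation and 0 in the fit of the compared groups alone, and 3 to 7 when a library was left out. Before EB8, the directions that turned in single members, none called, were those of mt-Cytb at ES under quantile normalisation (0.03) and on leaving out a WT library (0.21 without replicate 1, -0.42 without replicate 2), mt-Co1 from ES to EB4 in KO under quantile normalisation (0.0), mt-Co3 (0.89 and -0.23) and mt-Atp6 (0.89 and -0.08) at EB4 without WT replicate 1 and 2, and mt-Nd2 (-0.07 and 0.78) at EB5 without WT replicate 1 and 2. The KO minus WT value of mt-Co1 at ES was also 0.0 under quantile normalisation. With EB8 more members turned. KO against WT turned in 9 without WT EB8 replicate 2, in 8 without KO EB8 replicate 2 and in 1 by edgeR and DESeq2 (mt-Nd1). EB8 against EB4 turned in WT in 7 without WT EB8 replicate 1 or WT EB4 replicate 2, in 3 without their partners and in 2 by edgeR, by DESeq2 and under each scaling, and in KO in 10 under quantile normalisation, 7 without KO EB8 replicate 1 and 3 under reads-per-million scaling. The genotype difference of that change turned in 8 without WT EB8 replicate 1, in 4 without KO EB8 replicate 1 and in 1 in 4 other leave-one-out fits. The cause was not tested. With the replicate block 10 members were called from ES to EB4 in WT and 0 in the other comparisons, as without it. Between genotypes, differences between replicates 1 and 2 correlated at 0.335 at ES, -0.058 at EB4, -0.209 at EB5 and -0.133 at EB8, while within genotypes they correlated at 0.233 to 0.422 between all KO stages, at 0.523 to 0.605 between the WT embryoid body stages and at -0.179 to -0.048 between WT ES and these. The block within each genotype, added for that reason, gave 10 calls from ES to EB4 in WT and changed the call of no member but mt-Cytb in KO. Exchanged numbers at EB5 and EB8, added after seeing the data, gave 0 calls. Upper-quartile and reads-per-million scaling shifted the median of all genes by 0.140 and 0.156 for KO against WT at EB8, and the calls over all genes went from 1677 higher and 2020 lower to 2278 and 1615 and to 2336 and 1576. Under reads-per-million scaling they went from 1590 higher and 1398 lower to 2536 and 710 for EB8 against EB4 in KO (median shift 0.241), and from 168 and 276 to 223 and 228 for the genotype difference of that change (median shift 0.155). Depth was not limiting for these abundant genes (6006 reads or more), in contrast to the spread between replicates.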

Other observations

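The table lists 27 further genes of the mitochondrial genome, of which 18 passed the filter on low values. From ES to EB4 in WT 8 of the 18 fell and none rose (limma, where 7.57% of all genes passed as lower), with a median log2 change of -1.45. Besides mt-Atp8 and mt-Nd3, those called were the tRNA genes mt-Ty, mt-Ts1, mt-Tg, mt-Tr, mt-Te and mt-Tp. Some had few reads, as mt-Tr with 5.5 and 6.4 normalised counts in WT EB4. How far reads over tRNA genes come from mature tRNAs in these poly-A libraries was not tested. The short protein genes fell more than any of the 10 genes above: mt-Atp8, the accessory subunit of ATP synthase (204 bases), by 2.40 on the log2 scale (SE 0.32, adjusted p = 0.00127) and mt-Nd3 of complex I (348 bases) by 2.33 (SE 0.41, adjusted p = 0.00396). In KO mt-Atp8 also fell, by 1.58 (SE 0.32, limma adjusted p = 0.0256). It was the single mitochondrial gene that limma called there (DESeq2 called 4 of the 18), where 0.992% of all genes passed as lower. The RPKM of mt-Atp8 was 2375 and 1924 (WT) against 1853 and 1440.4 (KO) at ES, and 489 and 347 (WT) against 523 and 627 (KO) at EB4, so that no ES value overlapped an EB4 value. All its 54-base windows recur in the nuclear genome, as do 99.0% of those of mt-Nd3. mt-Atp8 overlaps mt-Atp6, as given above, with no tRNA between them. The log2 change of mt-Atp6 over the same step was -1.60 in WT and -0.89 in KO. Whether the assignment of reads to these overlapping genes contributes to the larger fall of mt-Atp8 was not tested.

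The rRNAs of the mitochondrial ribosome, which are only partly kept by poly-A selection, did not pass the test from ES to EB4 in WT (mt-Rnr1 log2 -0.76 ± 0.50 SE, adjusted p = 0.318, and mt-Rnr2 log2 -0.12 ± 0.59 SE, adjusted p = 0.911). Between genotypes limma called 1 of the 18, at EB8, where 22.9% of all genes passed. This was mt-Tp, the proline tRNA beside the control region, lower in KO (log2 -1.39 ± 0.28 SE, limma adjusted p = 0.0039), with 110 to 732 reads over the 16 libraries.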
